A study of Mus musculus with 9 samples.

Results

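The genes described here are 9 transcription factor genes linked to memory CD8+ T cells, Lef1, Id3, Bcl6, Bach2, Myb, Zeb1, Stat3, Foxo1 and Foxo3, followed in antigen-specific CD8+ T cells with and without Tsc1. They were taken from a list of names, and all 9 were measured among 17097 genes. Each is represented by its probe set with the highest mean over the 9 arrays, and the 9 genes together have 17 probe sets that name no other gene. The cells came from C57BL/6 mice, were specific for OVA, a model antigen, and were sorted from spleen 9 days after the mice had been infected with Listeria monocytogenes. The WT group (4 samples) carried Tsc1-fl/fl alleles and no cre, and the Tsc1-/- group (5 samples) carried the same alleles with Granzyme B-cre. The Granzyme B promoter is active in activated cytotoxic cells, so deletion follows activation. All Tsc1-/- samples and no WT samples carried cre, so an effect of cre itself and loss of Tsc1 cannot be told apart in any result.

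Memory CD8+ T cells are the long-lived cells that remain after most effector cells of an infection have died. The factors followed here are linked to that choice and act by several routes. Lef1 is an HMG-box factor that works beside TCF-1, Id3 blocks the DNA binding of E proteins, Bcl6, Bach2 and Zeb1 repress target genes, Stat3 carries cytokine signals to the nucleus, and Foxo1 and Foxo3 are kept out of the nucleus by the kinase Akt. The comparison asks whether the expression of these genes depends on Tsc1, a subunit of the complex that restrains the growth kinase mTORC1.

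All values are deposited log2 expression values of microarray probe sets, and all differences are Tsc1-/- minus WT on that scale. Tsc1, the targeted gene, read 7.77, 7.61, 7.71 and 7.56 in WT replicates 1 to 4 and 7.43, 7.27, 7.51, 7.44 and 7.35 in Tsc1-/- replicates 1 to 5, so that the groups did not overlap (difference -0.26, SE 0.08, adjusted p = 0.114, limma). Its dimmer probe sets differed by -0.32 and -0.01, and whether any of the 3 overlaps the deleted exons was not analysed here. The sorted cells were bright for T cell genes in every sample: the mean level of 10 CD8 T cell markers was 10.94 to 11.03 in WT and 10.95 to 11.04 in Tsc1-/-. Markers of other cells differed between the groups. The mean level of 13 macrophage and monocyte markers was between 6.91 and 7.06 on 3 WT arrays but 6.18 on WT replicate 4, and the Tsc1-/- arrays spanned 6.09 to 6.45; 12 of the 13 markers had a lower mean in Tsc1-/-. For B cell markers the same 3 WT arrays spanned 6.97 to 7.14, WT replicate 4 had 6.52 and the Tsc1-/- arrays spanned 6.42 to 6.65; 11 of 12 markers had a lower mean in Tsc1-/-. The level of 5 measured naive T cell markers was 8.74 to 9.05 in WT and 8.58 to 8.73 in Tsc1-/-. No marker of these lists passed the threshold by itself, and the deposited values carry no detection call, so none can be called absent. In sorted bulk samples, fewer cells of a type and less RNA per cell cannot be told apart.

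By their brightest probe sets, none of the 9 genes passed an adjusted p under 0.05 (limma, Benjamini-Hochberg over all genes), where 219 of 17097 genes did (1.28%; 0.971% as higher and 0.31% as lower). At an unadjusted p under 0.05 there were 4 of them, Lef1, Bcl6, Bach2 and Zeb1, all lower in Tsc1-/-, against 17.2% of all genes in either direction and 7.34% as lower. Differences were below 0 for 6 of the 9 genes, against 51.8% of all genes, and their median was -0.21, against -0.01 over all genes. Lef1 was the only one whose groups did not overlap, which held for 7.96% of all genes (2.88% with Tsc1-/- below and 5.08% with Tsc1-/- above). Of the 17 probe sets of these genes, 13 had a difference below 0, and 2, of Lef1 and Bach2, had all Tsc1-/- values below all WT values, as 2.97% of all 45037 probe sets did. In the fit over all 45037 probe sets, where 0.24% passed, the dimmest probe set of Bach2 passed as the only one of the 17. With 4 against 5 arrays an exact permutation test over all splits of the arrays cannot give a p below 0.00794. After adjustment over all genes that smallest p became 0.155. The adjusted permutation test thus passed no gene at all, and it says nothing particular about the 9.

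**Figure D1:**
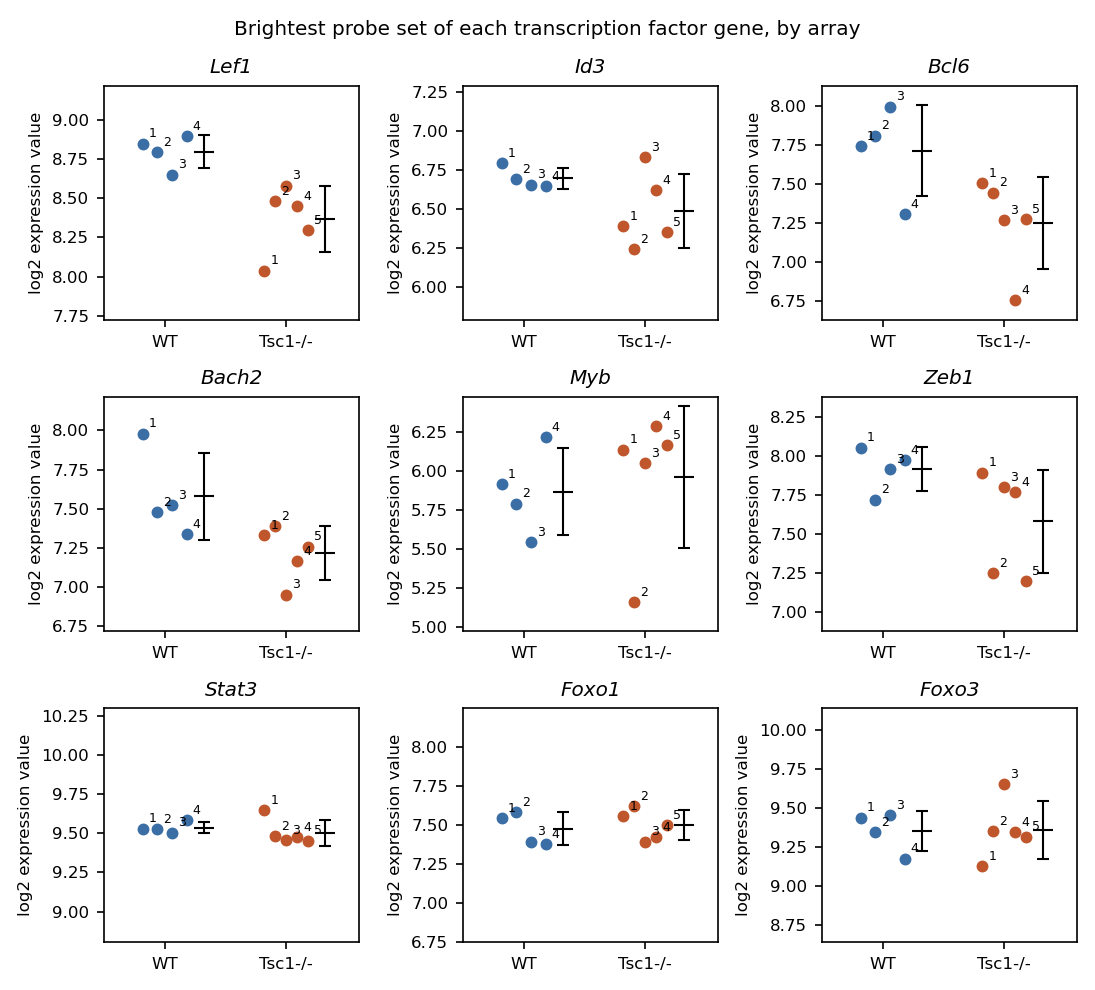
The log2 expression value of the brightest probe set of each gene is plotted for every array, in WT and Tsc1-/-, with the replicate number beside each point and the mean and SD of the group in black; every panel spans 1.5 log2 units. Lef1 is the gene whose groups do not overlap, and Stat3, Foxo1 and Foxo3 have differences of -0.03, 0.02 and 0.00.

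Lef1 read 8.85, 8.79, 8.65 and 8.90 in WT and 8.04, 8.48, 8.58, 8.45 and 8.30 in Tsc1-/-. The highest Tsc1-/- value lay below the lowest WT value, and Tsc1-/- replicate 1 was the lowest of all. The means were 8.80 ± 0.11 (SD, n = 4) and 8.37 ± 0.21 (SD, n = 5), a difference of -0.43 (SE 0.11, 95% interval -0.67 to -0.19), which puts Tsc1-/- at 74.2% of the WT level. The exact two-sided permutation p was 0.0159 and limma's adjusted p was 0.0707. Lef1 passed the threshold in a fit to the brighter genes only (adjusted p = 0.0341, limma) and with a variance trend and robust estimation (adjusted p = 0.0279). In those fits 685 of 8548 and 680 of 17097 genes passed, where 219 of 17097 did in the main fit. WT replicate 4, whose macrophage and B cell marker levels were those of the Tsc1-/- arrays, had the highest Lef1 value. Adding the macrophage marker level to the model gave a Lef1 difference of -0.52 (adjusted p = 0.283, limma), and adding the B cell marker level gave -0.43 (adjusted p = 0.460). With either marker level in the model, none of the 17097 genes passed. The level of the 5 measured naive T cell markers also did not overlap between the groups. It was 8.89, 8.95, 9.05 and 8.74 in WT and 8.65, 8.58, 8.70, 8.67 and 8.73 in Tsc1-/-, with 4 of the 5 genes lower on average. Among the WT arrays its order was the reverse of that of Lef1, and among the Tsc1-/- arrays it was neither the same nor the reverse. The part of this marker level in the Lef1 difference was not tested. Lef1 has 1 probe set of its own here.

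Bach2, a repressor that competes with AP-1 factors at shared sites, has 3 probe sets, all with lower means in Tsc1-/-. The brightest read 7.98, 7.48, 7.52 and 7.33 in WT and 7.33, 7.39, 6.95, 7.16 and 7.26 in Tsc1-/-. WT replicate 1 stood above the rest, WT replicate 4 lay level with the highest Tsc1-/- arrays, and the groups overlapped. The difference was -0.36 (SE 0.13, 95% interval -0.64 to -0.08; exact permutation p = 0.0317; adjusted p = 0.177, limma). Without WT replicate 1 it was -0.23 (adjusted p = 0.389, limma), and with the macrophage or B cell marker level in the model it was -0.20 or -0.26.

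The dimmest Bach2 probe set, 1436515_PM_at, read 6.36, 6.53, 6.41 and 6.75 in WT and 5.65, 5.70, 5.43, 5.66 and 5.73 in Tsc1-/-. The gap between the lowest WT array and the highest Tsc1-/- array was wider than the range inside either group. This probe set fell by 0.88 on the log2 scale (SE 0.10, 95% interval -1.10 to -0.66). Its Tsc1-/- values lie below the median level over genes of 6.34, and with no detection call it is not shown to be above background there, so no percentage of the WT level is given. It passed the threshold over all 45037 probe sets (adjusted p = 0.0160, limma), as 39 probe sets did as lower (0.0866%), and its exact permutation p was 0.00794, the smallest possible. It is one of 17 probe sets of these genes, and it was singled out after its value was seen. Under 16 other settings the difference lay between -1.07 and -0.80. Adding the macrophage or the B cell marker level to the model gave -1.04 or -1.07, but the adjusted p was then 0.212 or 0.246, and the call was also lost without WT replicate 2 (0.0985), Tsc1-/- replicate 4 (0.0585) or Tsc1-/- replicate 5 (0.0568). The third Bach2 probe set read 6.18 to 6.64 in WT and 6.04 to 6.19 in Tsc1-/- and differed by -0.31 (SE 0.11, adjusted p = 0.197, limma). Its mean over all arrays, 6.26, was below the median level over genes. When the probe sets of each gene were averaged, Bach2 differed by -0.52 and passed (adjusted p = 0.0248, limma). That average includes the dimmest probe set, at -0.88, beside differences of -0.36 and -0.31 that did not pass. Where the 3 probe sets lie on Bach2 transcripts was not analysed here, and neither was the reason for their different sizes.

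Bcl6, a zinc finger repressor of the gene for Blimp-1, read 7.75, 7.81, 7.997 and 7.31 in WT and 7.51, 7.45, 7.27, 6.76 and 7.28 in Tsc1-/-. WT replicates 1 to 3 were the highest arrays, while WT replicate 4 lay inside the Tsc1-/- range. The difference was -0.46 (SE 0.16, 95% interval -0.81 to -0.11), or 72.6% of the WT level (exact permutation p = 0.0556; adjusted p = 0.166, limma). The arrays with high Bcl6 were those with a macrophage marker level of 6.91 to 7.06. With that level in the model the Bcl6 difference was -0.05 (adjusted p = 0.948), and with the B cell marker level it was -0.11 (adjusted p = 0.919, limma). The second Bcl6 probe set differed by -0.21 (SE 0.15, adjusted p = 0.550, limma). The part of other cells in the Bcl6 difference was not tested.

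**Figure D2:**
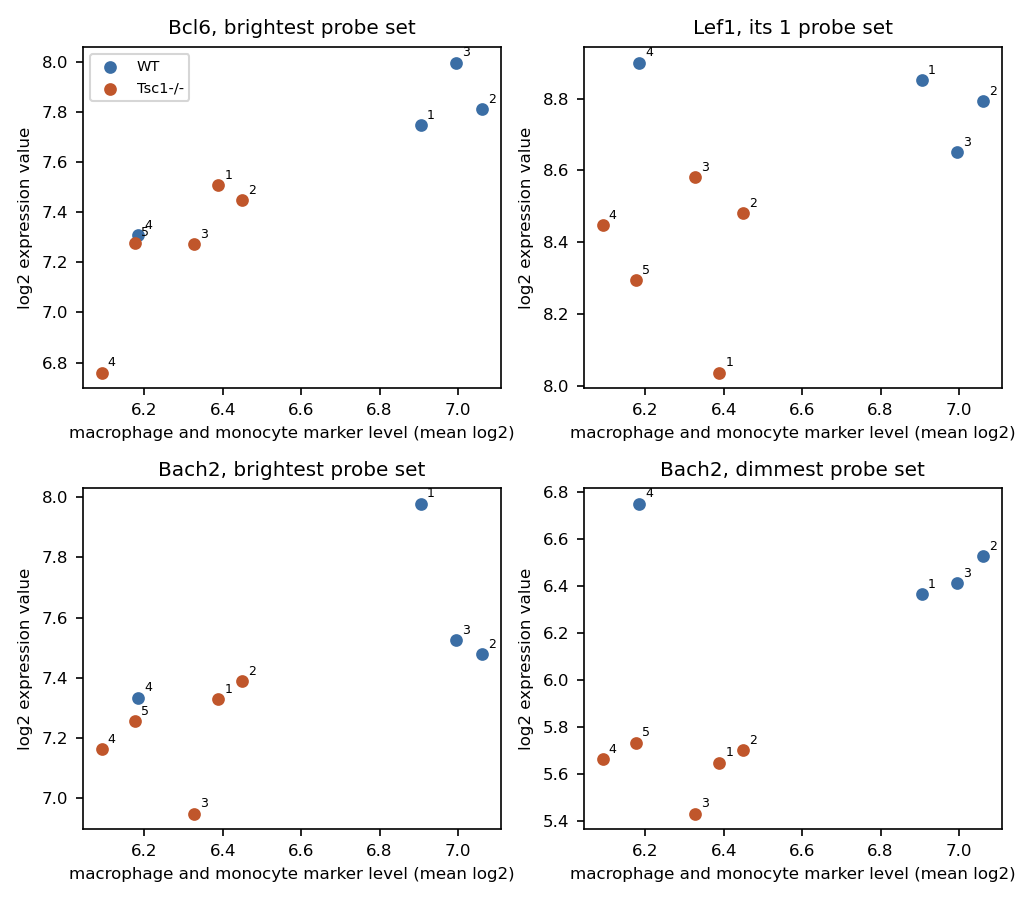
Each panel plots the log2 expression value of a probe set against the mean log2 level of 13 macrophage and monocyte markers on the same array, with WT in blue, Tsc1-/- in orange and the replicate number beside each point. WT replicate 4 (marker level 6.18) lies among the Tsc1-/- arrays for Bcl6 and for the brightest Bach2 probe set, and above all of them for Lef1 and for the dimmest Bach2 probe set.

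Lef1, Bach2 and Bcl6 had the lowest differences of the 9 genes by their brightest probe sets, and their promoters are shown so that their sequence can be set beside these values. Of the 9 genes, 8 matched an entry in RefSeq's promoter table (GRCm38.p6), and the entry with the most upstream start was used. Each line gives the 250 bases before that start, 5′ to 3′ on the gene's strand: chr3:131110047-131110296 (plus strand) for Lef1, chr4:32417185-32417434 (plus strand) for Bach2 and chr16:23988853-23989102 (minus strand) for Bcl6. Capitals mark matches to any of 5 motifs on either strand, and no matches overlapped.
Lef1: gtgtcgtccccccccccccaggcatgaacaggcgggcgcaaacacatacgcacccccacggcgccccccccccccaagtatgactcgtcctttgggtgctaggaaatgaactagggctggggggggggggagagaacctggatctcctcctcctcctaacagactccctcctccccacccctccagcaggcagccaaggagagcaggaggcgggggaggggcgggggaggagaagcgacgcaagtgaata
Bach2: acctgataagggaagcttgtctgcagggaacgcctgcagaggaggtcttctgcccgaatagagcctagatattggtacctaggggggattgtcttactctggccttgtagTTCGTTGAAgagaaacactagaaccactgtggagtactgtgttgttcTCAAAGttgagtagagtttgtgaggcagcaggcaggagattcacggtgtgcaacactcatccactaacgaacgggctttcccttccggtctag
Bcl6: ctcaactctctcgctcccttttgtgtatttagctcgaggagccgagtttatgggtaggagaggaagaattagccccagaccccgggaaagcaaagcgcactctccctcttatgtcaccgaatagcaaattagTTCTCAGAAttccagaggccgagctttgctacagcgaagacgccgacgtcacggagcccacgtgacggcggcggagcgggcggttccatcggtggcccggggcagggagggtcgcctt

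The motifs were CTTTGA for TCF and LEF factors, TGTTTAC for FoxO factors, CACCTG for Zeb1 and E proteins, TGANTCA for AP-1 and Bach2, and TTCNNNGAA for STAT factors. The STAT motif occurred 140 bases before the Bach2 start and 118 bases before the Bcl6 start, and 7.14% of 27025 promoters of this length hold it. The TCF and LEF motif, read on the other strand, occurred 93 bases before the Bach2 start, and 14.1% of promoters hold it. The FoxO motif (3.06% of promoters), the Zeb1 motif (17.1%) and the AP-1 motif (6.85%) had no match in these windows or in those of the other 5 genes with an entry, nor did any motif match in the Lef1 window. These are matches of letters only, and no binding was measured.

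Zeb1, a zinc finger repressor with an opposing family member, Zeb2, in effector cells, read 8.06, 7.72, 7.91 and 7.97 in WT and 7.89, 7.25, 7.80, 7.77 and 7.20 in Tsc1-/-. Tsc1-/- replicates 2 and 5 were low and the other 3 lay inside the WT range. The difference was -0.33 (SE 0.15, 95% interval -0.66 to -0.01; exact permutation p = 0.135; adjusted p = 0.278, limma). The other probe sets of Zeb1 differed by -0.35 (SE 0.13, exact permutation p = 0.0556) and -0.36 (SE 0.17, exact permutation p = 0.127), so its 3 probe sets gave like sizes, none of them past the threshold (adjusted p = 0.223 or higher, limma). The low arrays were not the same ones. Tsc1-/- replicate 5 was the lowest array on the brightest probe set but the highest Tsc1-/- array on the others (7.42 and 6.29). The probe set at -0.36 had a mean of 6.00, below the median level over genes of 6.34. Without Tsc1-/- replicate 2 the brightest differed by -0.25 and without replicate 5 by -0.24.

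Id3 read 6.79, 6.69, 6.65 and 6.64 in WT and 6.39, 6.24, 6.83, 6.62 and 6.35 in Tsc1-/-. The WT arrays were close together, with an SD of 0.07, while Tsc1-/- replicate 3 was the highest of all 9 arrays and the other 4 lay below every WT array. The difference was -0.21 (SE 0.11, 95% interval -0.46 to 0.04; exact permutation p = 0.127; adjusted p = 0.375, limma). Without Tsc1-/- replicate 3 it was -0.29 (adjusted p = 0.158).

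**Figure D3:**
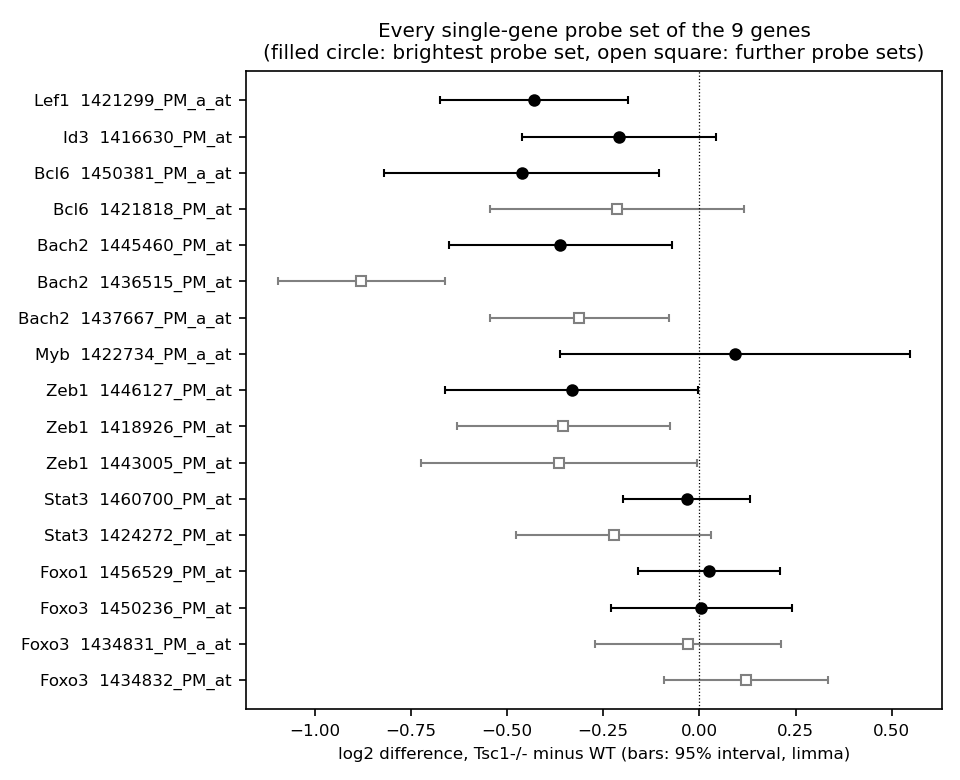
The log2 difference between Tsc1-/- and WT, with its 95% interval from limma fitted over all probe sets, is plotted for each of the 17 probe sets of the 9 genes. The dimmest Bach2 probe set lies at -0.88, and the 3 probe sets of Zeb1 lie between -0.36 and -0.33.

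Stat3, which carries signals of several interleukin receptors, read 9.53, 9.53, 9.51 and 9.59 in WT and 9.65, 9.48, 9.46, 9.47 and 9.45 in Tsc1-/-. Tsc1-/- replicate 1 was the highest of all arrays, and the other Tsc1-/- arrays lay just below the WT arrays. The difference was -0.03 (95% interval -0.19 to 0.13), and it was 0.01 when each array was centred on its median. A dimmer Stat3 probe set differed by -0.22 (95% interval -0.48 to 0.03, adjusted p = 0.401, limma).

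Foxo1, which maintains quiescence and homing genes of lymphocytes, read 7.55, 7.58, 7.39 and 7.38 in WT and 7.56, 7.62, 7.40, 7.42 and 7.50 in Tsc1-/-, a difference of 0.02 (95% interval -0.15 to 0.20). Its paralog Foxo3 read 9.44, 9.35, 9.46 and 9.18 in WT and 9.13, 9.35, 9.65, 9.35 and 9.32 in Tsc1-/-, a difference of 0.00 (95% interval -0.22 to 0.23). The ranges of the groups overlapped for both genes, and the sign of both differences turned under quantile normalization (-0.0016 and -0.04). The further Foxo3 probe sets differed by -0.03 (95% interval -0.27 to 0.21) and 0.12 (95% interval -0.09 to 0.33). Changes inside these intervals are not excluded. A change beyond them could also miss the threshold with this number of arrays, as Bcl6 did at -0.46. RNA levels do not show where in the cell the FoxO proteins were.

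Myb, a factor of dividing progenitors that also supports stem-like T cells, was the only gene of the 9 below the median level over genes of 6.34. It read 5.91, 5.79, 5.54 and 6.22 in WT and 6.14, 5.16, 6.05, 6.29 and 6.17 in Tsc1-/-. Tsc1-/- replicate 2 was the lowest array and the other 4 lay among or above the WT arrays. The difference was 0.09 (95% interval -0.36 to 0.54), the widest interval of the 9 genes. It was 0.29 without Tsc1-/- replicate 2, -0.01 without WT replicate 3 and -0.32 with the macrophage marker level in the model.

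The genes whose array profiles were most like those of the 4 genes with an unadjusted p under 0.05 were found by the root mean square distance between centred log2 values over the 9 arrays, among 8219 brighter genes. For Lef1 they were Phf21a (distance 0.09 log2 units) and Cmah (0.10), where the median distance over genes was 0.31. For Bcl6 they were Cebpb (0.13), which encodes a factor of myeloid cells, and Igf1 (0.13), a growth factor gene, with a median of 0.38. For Bach2 they were Psen2 (0.13) and Slc35b2 (0.13), and for Zeb1 Tnik (0.12) and Itpk1 (0.12), with medians of 0.31 and 0.34. None of these 8 genes passed the threshold (adjusted p = 0.104 or higher, limma). They were picked as the closest genes, so distances below the median follow from the choice. The 4 genes they were matched to did not pass either.

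Partners and targets of the 9 factors were followed in 10 gene lists with 107 distinct measured genes, of which 3 passed the threshold, all as lower: Hipk1, Il27ra and Eomes. Over all genes, 1.28% passed in either direction and 0.31% as lower. Hipk1, a nuclear kinase gene placed beside the Myb family and its coactivators, read 10.08, 10.06, 9.87 and 10.17 in WT and 9.62, 9.52, 9.65, 9.46 and 9.52 in Tsc1-/-. It fell by 0.49 (SE 0.08, adjusted p = 0.0314, limma), and its groups did not overlap. Il27ra, a cytokine receptor chain in the Stat3 pathway list, read 8.91, 9.07, 8.96 and 9.05 in WT and 8.73, 8.60, 8.57, 8.50 and 8.57 in Tsc1-/-. It fell by 0.41 (SE 0.08, adjusted p = 0.0359, limma), again without overlap. Eomes, a T-box factor of memory and effector cells, read 8.59 to 8.91 in WT and 7.93 to 8.44 in Tsc1-/- and had the lowest difference of the effector factor list (-0.58). Each of these calls was lost in some fits without 1 array. Without WT replicate 1 the adjusted p (limma) of Hipk1 was 0.106, of Il27ra 0.106 and of Eomes 0.125. In that fit only 2 of all 17097 genes passed, and the 3 differences were -0.48, -0.44 and -0.51. The number of calls among the 107 genes ranged from 0 (without any one of WT replicates 1 and 2 and Tsc1-/- replicates 2, 4 and 5) through 1 (without WT replicate 3 or Tsc1-/- replicate 3) to 8 (without WT replicate 4).

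Among 16 Wnt and TCF/LEF partners none passed and the median difference was -0.06, with Tcf7l2 at -0.39 (adjusted p = 0.204; -0.12 or -0.15 with the macrophage or B cell marker level in the model) and Axin2, a standard target of this pathway, at -0.28 (adjusted p = 0.247, limma). Tcf7, the gene of TCF-1, was not analysed here. The 6 E protein and Id genes had a median of -0.05 and none passed; Id2, the Id gene of effector cells, differed by -0.14 (95% interval -0.35 to 0.06) and the E protein gene Tcf4 by -0.17. The Tcf4 difference was -0.09 without WT replicate 3 and -0.08 or -0.07 with the macrophage or B cell marker level in the model. The Id2 difference was -0.23 with the B cell marker level in the model and -0.09 with its probe sets averaged. Of the Bcl6 corepressor list, 4 of 8 genes were measured, with Hdac7 at -0.24, Bcor at -0.18 and a median of -0.15. Prdm1, the gene of Blimp-1, differed by 0.02 (adjusted p = 0.942, limma).

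The 13 Bach2 partner and AP-1 genes had a median of 0.13 and none passed. Nfe2l2, which encodes the antioxidant regulator Nrf2 and shares small Maf partners with Bach2, read 7.78, 7.69, 7.77 and 7.56 in WT and 7.69, 8.54, 8.48, 8.60 and 8.62 in Tsc1-/-. Its Tsc1-/- replicate 1 stayed with the WT arrays while the other 4 lay above them all (difference 0.69, SE 0.17, adjusted p = 0.0605), and without that array the difference was 0.86 (adjusted p = 0.00509, limma). Fos differed by -0.73 (adjusted p = 0.140, limma), and by -0.36 or -0.35 with the macrophage or B cell marker level in the model.

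The 5 Myb family and coactivator genes had a median of -0.10. The 13 Zeb partner and TGF-beta genes had a median of -0.07 and none passed, with Smad7 at -0.21 and Smad4 at -0.18 (-0.11 without Tsc1-/- replicate 1). The 18 Stat3 pathway genes had a median of -0.06, with Il27ra as the only call. The 9 FoxO family and regulator genes had a median of 0.08 and none passed. Akt1, the kinase gene upstream of FoxO proteins, differed by 0.29 (adjusted p = 0.114, limma; 0.18 with the B cell marker level in the model). Akt2 differed by 0.17, by 0.09 with its probe sets averaged and by 0.26 or 0.29 with the macrophage or B cell marker level in the model. The 14 FoxO target genes had a median of -0.05 and none passed, although Klhl24 differed by -0.52 (adjusted p = 0.0605, limma), or by -0.30 with the B cell marker level in the model. The cell cycle inhibitor gene Cdkn1b read 10.82 to 10.95 in WT and 10.49 to 10.72 in Tsc1-/- without overlap (difference -0.26, adjusted p = 0.112, limma). The 13 effector transcription factor genes had a median of 0.02, with Eomes as the only call.

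**Figure D4:**
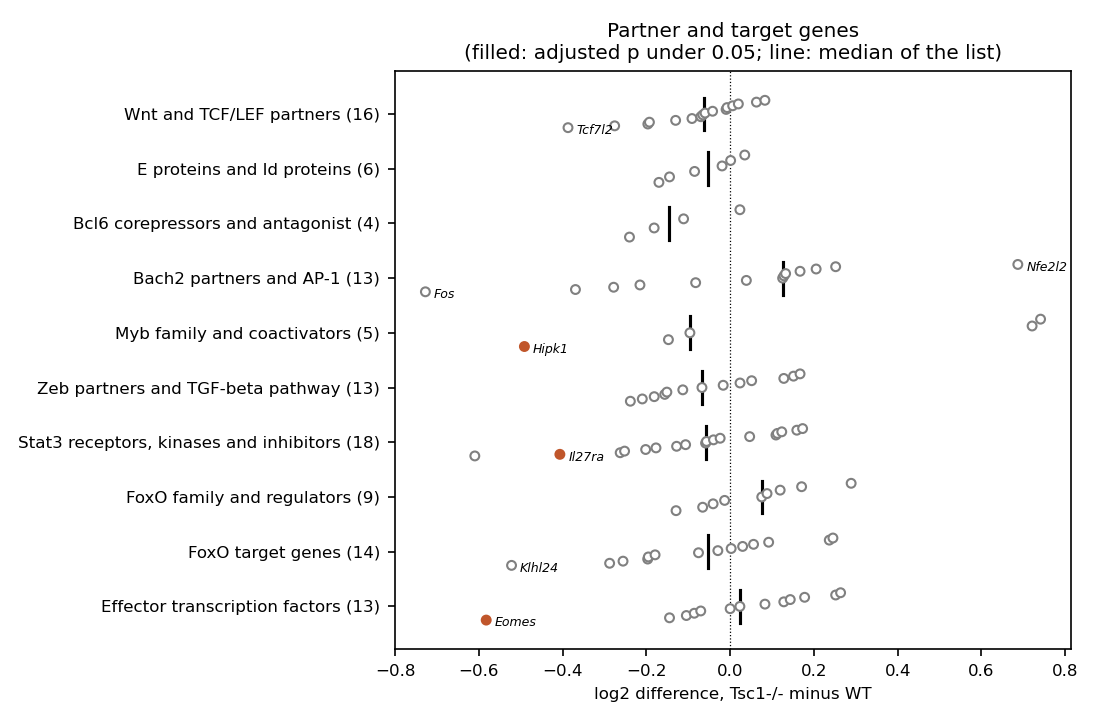
The log2 difference between Tsc1-/- and WT is plotted for each measured gene of the 10 partner and target lists, with the number of genes in brackets, filled points for genes past the threshold and a line at the list's median. Named genes with a difference beyond 0.35 in size are labelled, and the 10 medians lie between -0.15 and 0.13.

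Across the 21 other settings, the direction of Lef1, Bach2, Bcl6, Zeb1 and Id3 was lower in Tsc1-/- in every one. Those with probe sets not joined, dim genes left out, a variance trend or an adjusted p under 0.1 could not change a difference. Lef1 ranged from -0.52 to -0.31, Zeb1 from -0.41 to -0.24 and Id3 from -0.29 to -0.15, while Bcl6 ranged from -0.66 to -0.05 and the brightest Bach2 probe set, or the mean of its probe sets, from -0.52 to -0.20.

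**Figure D5:**
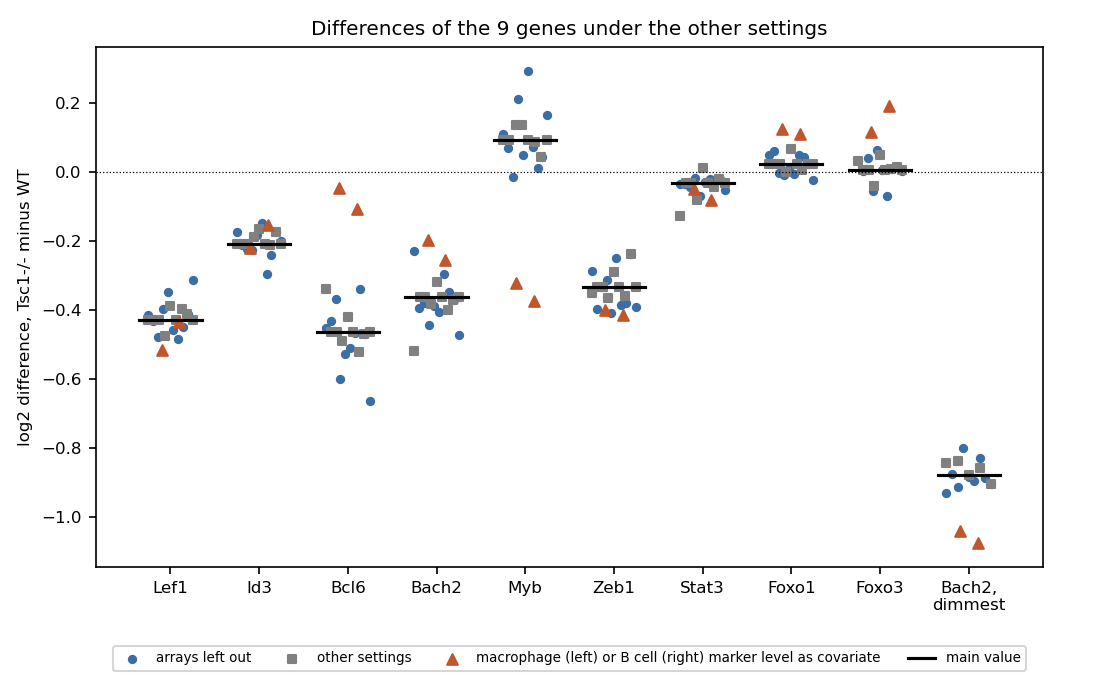
For each of the 9 genes, and for the dimmest Bach2 probe set at the right, the log2 difference between Tsc1-/- and WT is plotted under every other setting, with a black line at the main value, circles for fits with arrays left out, triangles for fits with a marker level as covariate and squares for other settings. Bcl6 and Myb move most with the marker levels, to -0.05 and -0.32 with the macrophage markers, and the dimmest Bach2 probe set lies at or below -0.80 throughout.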

How the data were processed

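RNA (12 ng of total RNA per sample, per the labels' protocols) was measured on 1 array per sample. The authors deposited log2 expression values per probe set made with RMA; Partek 6.5 is listed too, per the submitters' processing notes. RMA commonly equalises the distributions of the arrays, which would hide any shift that most transcripts share. The medians of the deposited arrays ran from 5.97 to 6.05, so the deposited distributions were not identical. Centring each array on its median raised the difference of each of the 9 genes, from -0.43 to -0.39 for Lef1. RMA options and a genome build are not given in sources used here. Of 45037 probe sets, 28898 had 1 gene by the platform annotation, 551 had several and 15588 were not listed there; only those with 1 gene were named, with symbols updated through RefSeq (GRCm38.p6, used for names and promoters only). Genes were tested with lmFit and eBayes (limma 3.58.1, R 4.3.3), genotype as the only term, two-sided; further probe sets were tested in a fit over all 45037. Exact permutation tests compared means over all splits of the arrays into 4 and 5. Whether each sample came from a separate mouse is not stated, so the p-values cover only the spread among the samples, which may be technical. The number of arrays limits the precision.

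Members and lists were chosen with earlier results of these data known. Named were the 9 genes, Tsc1, from each list up to 4 genes past the threshold or the 2 with the smallest p, and the nearest profiles; Prdm1 and the dimmest Bach2 probe set were named outside this rule. The fits were tested on simulated data. Figures were drawn in Python 3.11.15.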

Additional observations from a re-analysis of the deposited data

Results flagged for a closer look

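Of 34 sets of arrays looked at (17 probe sets in 2 groups), 3 held an array far from the others of its group by Dixon's criterion, which chance passes in about 1 of 20. Tsc1-/- replicate 2 read 5.16 for Myb, where the other Tsc1-/- arrays read 6.05 to 6.29. Tsc1-/- replicate 1 read 9.65 for the brightest Stat3 probe set, where the others read 9.45 to 9.48. Tsc1-/- replicate 3 read 5.43 for the dimmest Bach2 probe set, where the others read 5.65 to 5.73; without it the difference was -0.83 (adjusted p = 0.0391, limma).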

How the results depend on the processing

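None of the 9 genes passed the threshold without any single array (0 to 0), and 1 of them did with probe sets averaged per gene (Bach2), with dim genes left out, with a variance trend and robust estimation, and at an adjusted p under 0.1 (Lef1 in each of these 3). Of 188 values of the 9 genes under other settings, 172 had the same direction and side of the threshold, 4 passed it and 12 turned in sign, all of genes near 0. Settings that changed only the test or the genes tested left each difference as it was, so no sign could turn there. Foxo1 turned under quantile normalization (-0.0016), without WT replicate 3 (-0.0031), WT replicate 4 (-0.0090) or Tsc1-/- replicate 2 (-0.0066), and without WT replicate 4 and Tsc1-/- replicate 1 together (-0.0242); without 1 array it ranged up to 0.0604. Foxo3 turned under quantile normalization (-0.0400), without WT replicate 4 (-0.05) and without Tsc1-/- replicate 3 (-0.0685), and ranged up to 0.0629 without 1 array. Stat3 turned with median centring (0.00984), and Myb with the macrophage (-0.32) or B cell marker level (-0.37) and without WT replicate 3 (-0.0140), against 0.293 without Tsc1-/- replicate 2. Myb, a dim gene, had no value with dim genes left out. The causes were not tested. With dim genes left out, 94 of the 107 partner and target genes remained. Of the partner and target genes, against 3 calls, 1 passed with probe sets not joined, 9 with dim genes left out, 5 with median centring, 9 with a variance trend and robust estimation, 7 with array weights, 8 at an adjusted p under 0.1, 9 without WT replicate 4 and Tsc1-/- replicate 1 together, and 0 with either marker level; without any single array there were 0 to 8. Deviations of same-numbered WT and Tsc1-/- arrays from their group means correlated at -0.10, 0.09, -0.07 and 0.02 over genes, so the numbers were not taken as pairs. With the replicate number as a block, which leaves out the unmatched Tsc1-/- replicate 5, 0 of the 9 genes and 0 of the partner and target genes passed, the Lef1 difference was -0.41 (adjusted p = 0.223) and that of the dimmest Bach2 probe set -0.90 (adjusted p = 0.114, limma). Over all genes, 166 were called higher and 53 lower, against 543 and 142 with dim genes left out, 509 and 171 with a variance trend, 340 and 125 with array weights, 381 and 57 with median centring, 58 and 32 under quantile normalization, 69 and 39 with probe sets not joined, 248 and 145 without WT replicate 4 and Tsc1-/- replicate 1 together, 529 and 209 at an adjusted p under 0.1, none with the block or either marker level, and 2 to 456 in all without a single array. These counts are over 17097 genes, except for 8548 genes with dim genes left out and 45037 probe sets with probe sets not joined. The fit without WT replicate 4 and Tsc1-/- replicate 1, and all other settings for the dimmest Bach2 probe set and the partner and target genes, were chosen after the data were seen.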

Other observations

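Relatives of the 9 factors outside the naming rule, picked after their values were seen, included Mybl2, the Myb relative of dividing cells, which read 5.84, 6.19, 6.01 and 6.54 in WT and 7.63, 6.66, 6.81, 6.57 and 6.77 in Tsc1-/- (difference 0.74, adjusted p = 0.0830, limma). All Tsc1-/- arrays lay above all WT arrays, and replicate 1 was the highest. Mybl1 differed by 0.72 (adjusted p = 0.0666, limma), at low levels of 3.09 to 4.64. Il6ra, the interleukin 6 receptor chain upstream of Stat3, read 8.22, 8.03, 8.05 and 7.59 in WT and 6.86, 7.42, 7.63, 7.46 and 7.46 in Tsc1-/- (difference -0.61, adjusted p = 0.0738, limma). For Il6ra, as for Bcl6, WT replicate 4 lay inside the Tsc1-/- range and the other WT arrays above it. The part of other cells in the Il6ra difference was not tested. Tsc1-/- replicate 1 was the lowest array for Il6ra, Lef1 and Klhl24. Zeb2 differed by 0.13 (adjusted p = 0.713, limma).

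The other marker lists had mean levels of 6.72 to 7.05 in WT and 6.55 to 6.86 in Tsc1-/- for dendritic cells, 6.61 to 7.46 and 5.78 to 7.77 for neutrophils, 5.67 to 6.14 and 5.52 to 6.49 for NK cells, 6.66 to 7.27 and 6.34 to 7.79 for erythroid cells, and 6.96 to 7.08 and 6.86 to 7.24 for CD4 and regulatory T cells. None of their measured genes passed the threshold (limma).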
